A study of Cymbidium longibracteatum with 2 samples.

Results

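A set of 122 leaf transcripts was far less abundant in a yellow-leaved variant of the orchid Cymbidium longibracteatum than in its green-leaved parent. The set was chosen by the deposited levels themselves. A unigene, that is, an assembled transcript with its own identifier, entered it with an FPKM of at least 10 in the green library and a log2 ratio of yellow to green of at most -3 on FPKM + 1, an 8-fold deficit on that scale. FPKM counts sequenced fragments scaled to the length of the transcript and to the size of the library. The rule took 122 of the 61101 unigenes in the table, and 122 of the 12161 that reached FPKM 10 in green, or 1.0%. Since the difference between the libraries chose these unigenes, their deficit is a description and was not tested.

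The green library came from the parent cultivar 'Longchangsu'. The yellow library came from a clonal variant of it, labelled mutant, which was obtained from yellowing rhizomes in tissue culture and subcultured for years until its leaf pattern, a line along the leaf margin, was stable. Both kinds of plant had been kept in a nursery for 1 year, with days of 25 °C and nights of 20 °C, and the 5 youngest leaves of a plant were mixed into a sample. There was 1 library of each leaf colour and the number of plants behind each is not stated, so values carry no replicate error and the comparison is one of 2 single libraries. The plants of the variant are of clonal origin, so its yellow colour and any other change carried by the clone cannot be told apart.

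Yellowing of leaves in such variants is commonly traced to chloroplasts that fail to form their inner membranes or to fill them with chlorophyll. Chloroplast formation draws on plastid genes and on a much larger number of nuclear genes, among them those for chlorophyll synthesis, light-harvesting proteins and the photosystems, whose transcripts are usually among the most abundant in a green leaf. The table pairs no identifier with a gene name and gives no sequence, so none of the 122 unigenes is assigned here to any of these functions, and the leaf label could not be checked against marker genes. In a whole-leaf sample, fewer cells of a type and less RNA per cell cannot be told apart.

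Levels in the 2 libraries were close at the median, while summed FPKM was higher in yellow. Summed FPKM was 947801 in green and 1069855 in yellow, and 48914 and 49931 unigenes had a value above 0. Much of the higher yellow sum came from a single unigene outside the set, which was more than 8-fold higher in yellow. The sums therefore do not show a rise across the library. Among the 12161 unigenes of green FPKM 10 or more, the median log2 ratio was -0.02 and the median unigene kept 98.6% of its green FPKM in yellow. The depth of neither library is known, and values therefore carry no counting interval.

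**Figure D1:**
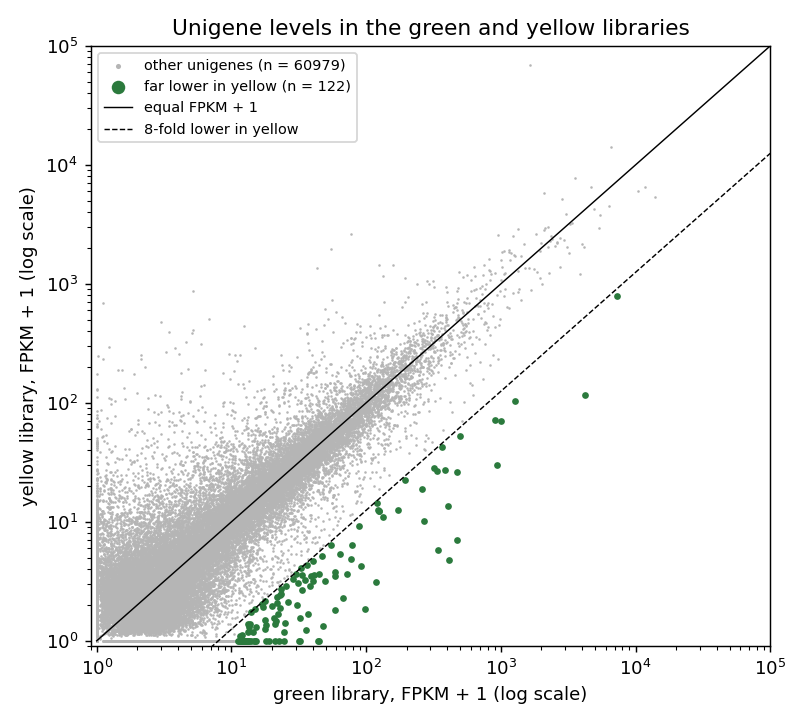
Level of each unigene in the green library (x axis, FPKM + 1, log scale) against the yellow library (y axis, FPKM + 1, log scale). The 122 far-lower unigenes (green points) lie below the dashed 8-fold line over the whole range of green FPKM from 10.1 to 7337, and grey points below that line are the 64 unigenes that had a green FPKM under 10.

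The far-lower unigenes ran from barely above the entry level to some of the most abundant transcripts of the green leaf. Their green FPKM had a median of 29.4, with quartiles of 14 and 74.9, a lowest value of 10.1 and a highest of 7337. In yellow their median FPKM was 1.02, with an upper quartile of 3.78 and a highest value of 783. Together they held 2.53% of all summed FPKM in green and 0.152% in yellow. Their sum was 24008 in green and 1621 in yellow, 14.8-fold lower.

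A few abundant unigenes made up most of that sum. The first 2 in order of green FPKM held 48.2% of it and the first 6 held 65.3%. The most abundant ranked 4 among all unigenes of the green library, with an FPKM of 7337, and ranked 111 in yellow, with an FPKM of 783. It kept 10.7% of its green level, so it stayed an abundant transcript in yellow leaves. The next had a larger deficit: its FPKM was 4224 in green, rank 11, and 116 in yellow, rank 1353, which is 2.74% of the green level and 36.6-fold lower. These unigenes and those after them are given by their order in green FPKM, since no name is tied to their identifiers.

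The third to the sixth had a similar green level and differed in what they kept. The third went from an FPKM of 1270 in green to 102 in yellow and kept 8.05%. The fourth went from 1009 to 68.9, 6.83% of the green level. The fifth, at 941 in green, had only 29.1 in yellow and kept 3.09%, while the sixth, at 906 in green, had 70.1 in yellow and kept 7.74%. The fifth was therefore 32.3-fold lower and the sixth 12.9-fold lower, although their green levels were nearly equal.

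Without these 6, the remaining unigenes summed to 8322 in green and 452 in yellow, so that 5.44% of their summed level was kept, against 6.75% for all 122. Any part of the set must keep less than 12.5% of its sum, because each member was chosen to.

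In all, 16 of the far-lower unigenes had a green FPKM of 300 or more. Each of the 16 remained above 0 in yellow, with between 0.934% and 11.3% of the green level kept, and 6 of them kept under 5%. The smallest deficit among the 16 was that of the thirteenth, which went from 363 in green to 41.2 in yellow. The largest deficits were those of the ninth, the tenth and the fourteenth, whose green FPKM was 472, 409 and 343 and whose yellow FPKM was 6.10, 3.82 and 4.82. These yellow values are below those of the other 13, which ran from 12.6 for the eleventh to 783 for the first. The amount left in yellow was therefore not ordered by the amount in green.

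**Figure D2:**
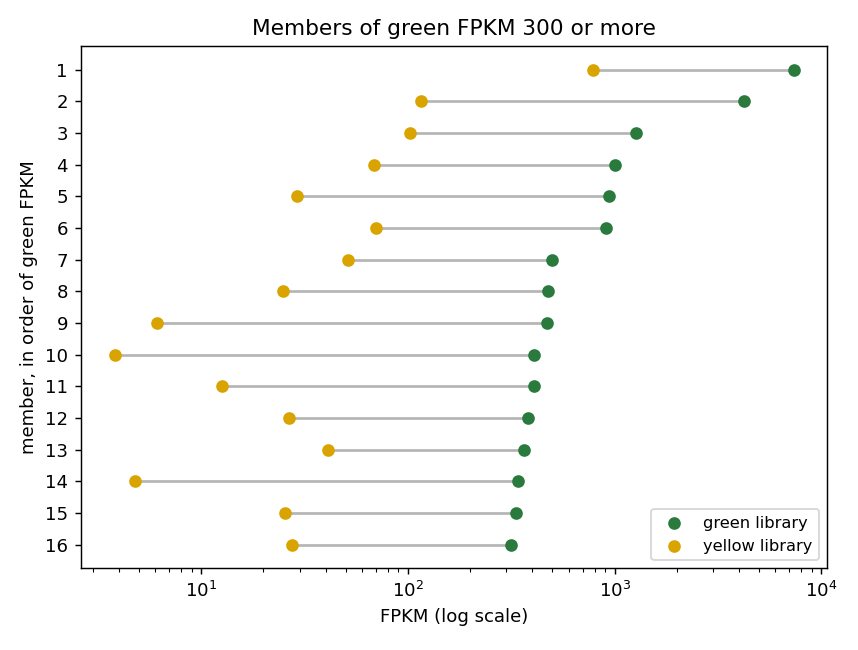
Green and yellow FPKM (x axis, log scale) of the 16 far-lower unigenes of green FPKM 300 or more, one per line in order of green FPKM (y axis). Each line joins the values of 1 unigene in the 2 libraries. The yellow values spread from 3.82 to 783, and the ninth, the tenth and the fourteenth have the lowest.

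The 2 lowest log2 ratios of the set, on FPKM + 1, belonged to the tenth and the ninth of these unigenes. Without the added 1, these 2 were not the largest deficits of the set. A member of green FPKM 34.9 and yellow FPKM 0.227 was 154-fold lower by FPKM, and 32 members were listed at 0 in yellow. At unknown depth, a fold that rests on a yellow value so near 0 is uncertain. The level of c21291_g1 went from an FPKM of 409 in green to 3.82 in yellow, which gives a log2 ratio of -6.41 on FPKM + 1. This unigene was 107-fold lower by FPKM and moved from rank 221 in green to rank 20177 in yellow. It has no other unigene in its component, which is the group of unigenes that share the first part of the identifier. That of c31936_g2 went from 472 in green to 6.10 in yellow, which gives a log2 ratio of -6.06. The latter was 77.4-fold lower by FPKM and moved from rank 193 to rank 16497. Its component holds another far-lower unigene, which went from 63.2 to 4.41, and 1 more unigene, with an FPKM of 5.42 in green and listed at 0 in yellow. All 3 unigenes of that component were thus lower in yellow, by differing amounts.

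Fewer members of this set were among the abundant transcripts in yellow than in green. The rule chose unigenes lower in yellow, so this direction was set by selection. Of the 100 most abundant unigenes of the green library, 6 belonged to the set, and none of its members was among the 100 most abundant of the yellow library. For the 1000 most abundant the numbers were 20 in green and 1 in yellow, and for the 5000 most abundant 51 and 7. In yellow, 62 of the 122 had an FPKM of at least 1, 20 had at least 10 and 3 had at least 100. Among the other 94 of the 100 most abundant green unigenes, 77 were within 2-fold on FPKM + 1, 10 were at least 2-fold lower and 7 at least 2-fold higher. The lowest log2 ratio among those 94 was -2.04, in a unigene that went from 949.5 to 231 and kept 24.3%. The 6 far-lower unigenes kept 2.74% to 10.7%. The gap between them and the other 94 depends on stopping at the 100 most abundant. Among all 339 unigenes of green FPKM 300 or more, 9 outside the set had log2 ratios below -2.04, the lowest being -2.88 in a unigene of rank 173 that went from 511 to 68.8.

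Most far-lower unigenes remained detectable in yellow. Of the 122, 90 had a yellow FPKM above 0 and 32 (26.2%) were listed at 0. Among the 90, the level kept had a median of 5.24%, with quartiles of 2.48% and 7.62%. It was at most 1% in 6 of them, between 1% and 2% in 13, between 2% and 5% in 21, between 5% and 10% in 45, and above 10% in 5. The highest value was 11.3% and the lowest above 0 was 0.651%. With the 32 at 0 included, the median was 3.09% of the green level. The median log2 ratio was -3.63 over all 122 and -3.61 over the 90. It was -4 or lower in 21 of the 90, -5 or lower in 8, and -6 or lower in 2.

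The unigenes listed at 0 in yellow were of modest level in green. Their green FPKM ran from 10.1 to 43.7 with a median of 12.2, and 6 of the 32 had 20 or more. All unigenes of green FPKM 10 or more that were listed at 0 in yellow belong to the set, since such a pair of values always meets the rule. A value of 0 at unknown depth does not show that the transcript was absent, and no fold is given for these 32.

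The rule itself caps the level that can be kept, and the cap tightens toward low levels. At a green FPKM of 10 the yellow FPKM can be at most 0.375, which is 3.75% of the green level. At a green FPKM of 100 the cap is 11.6%, and at high levels it approaches 12.5%. The lower percentages among unigenes of low green FPKM are therefore in part set by the rule. Between a green FPKM of 10 and 20, 26 of the 45 far-lower unigenes were listed at 0 in yellow, and the others kept a median of 2.82%. From 100 to 300, none of the 10 was at 0 and the median was 8.30%. From 300 to 1000 it was 6.09% over 12 unigenes, and above that 7.44% over 4.

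**Figure D3:**
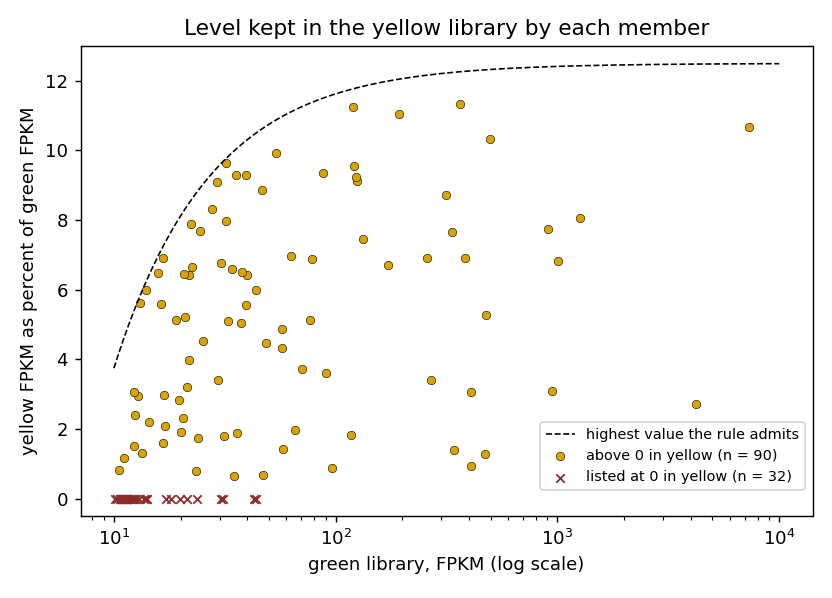
Yellow FPKM as a percent of green FPKM (y axis) against green FPKM (x axis, log scale) for each of the 122 far-lower unigenes. Crosses mark the 32 listed at 0 in yellow, all at a green FPKM of 43.7 or less, and the dashed curve is the highest percent that the rule admits, which rises from 3.75% to near 12.5%.

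At the limit of the rule the unigenes formed a continuum. The 3 just inside had a green FPKM of 31.99, 13.05 and 14.01, a yellow FPKM of 3.09, 0.732 and 0.841, and log2 ratios of -3.01, -3.02 and -3.03. The 3 just outside had a green FPKM of 33.7, 16.2 and 26.5, a yellow FPKM of 3.40, 1.23 and 2.57, and log2 ratios of -2.98, -2.95 and -2.95. In the 0.1 below the limit of -3 there were 9 far-lower unigenes, and in the 0.1 above it 9 unigenes of green FPKM 10 or more. A further 64 unigenes met the ratio but had a green FPKM of 7.01 to 9.88. Of these, 63 were listed at 0 in yellow. The set is therefore the end of a distribution.

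Deficits of this size were rare at low and middling levels and less rare among abundant transcripts. Of 11822 unigenes with a green FPKM from 10 to below 300, 106 (0.897%) were far lower in yellow. Of 339 with a green FPKM of 300 or more, 16 (4.72%) were. In narrower ranges the share was 1.11% from 10 to 20, 0.834% from 20 to 50, 0.632% from 50 to 100 and 0.841% from 100 to 300. It was 4.53% from 300 to 1000 and 5.41% at 1000 or more, where it rests on 4 of 74 unigenes. The share at 300 or more stayed the higher one when the libraries were rescaled to equal sums, with 4.62% against 1.05%, and with scaling to equal upper quartiles, with 5.01% against 1.07%. The boundary at 300 was chosen after these values were seen. The rule is stricter at low levels, with a cap of 3.75% kept at a green FPKM of 10 against 11.6% at 100. How far that lowers the shares at low levels was not tested.

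The opposite difference, 8-fold higher in yellow at a yellow FPKM of 10 or more, was found in 509 of 13324 unigenes, or 3.82%, which is 4.17 times the number of far-lower unigenes. That excess was smaller among abundant transcripts. At a level from 10 to below 300 there were 481 far-higher unigenes, 4.54 times the number far lower. At 300 or more there were 28, or 1.75 times. Rescaling to equal sums gave 3.34 and 1.41 times, and scaling to equal upper quartiles 2.84 and 1.18 times. Scaling by the median ratio gave 4.22 and 1.75 times. The share listed at 0 in the other library was similar in both directions, at 32 of 122 (26.2%) far-lower unigenes and 121 of 509 (23.8%) far-higher ones. With 1 library per colour none of these shares was tested.

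**Figure D4:**
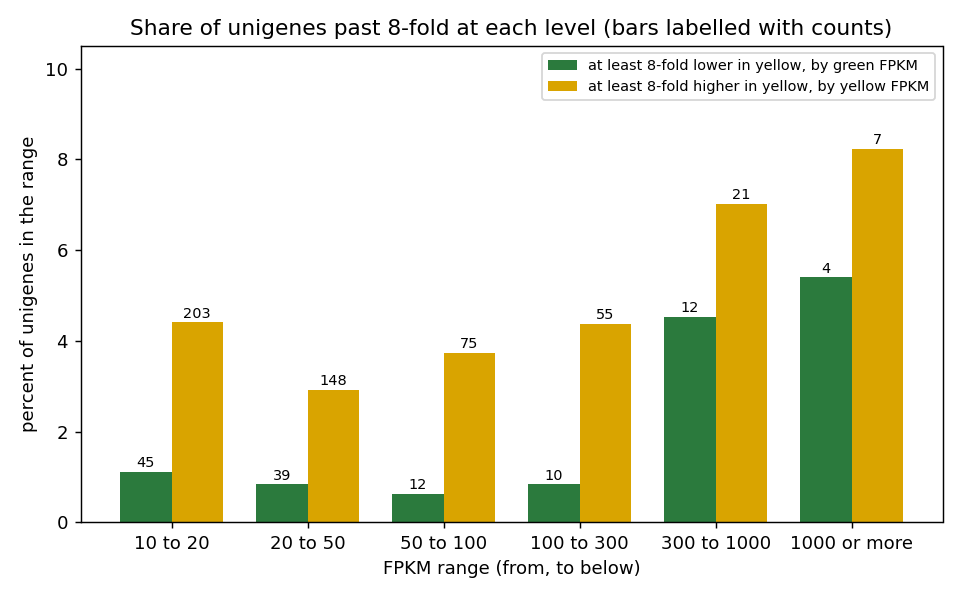
Percent of unigenes in each FPKM range (x axis) that were at least 8-fold lower in yellow (green bars, by green FPKM) or at least 8-fold higher (yellow bars, by yellow FPKM), on FPKM + 1. The number on each bar is its count of unigenes. The far-lower share is under 1.2% in each of the 4 ranges below 300 and above 4.5% in both ranges from 300 upward.

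Unigenes with the same component number may be related sequences of the assembly, such as gene copies, alleles or pieces of a transcript, and are not independent. The 122 far-lower unigenes fell into 116 components. Of the 122, 80 were the only unigene of their component and 42 (34.4%) shared it with others, a share close to the 37.6% among all 12161 unigenes of green FPKM 10 or more. Among the 16 of green FPKM 300 or more, 13 had no other unigene in their component, against 183 (54.0%) of all 339 unigenes of that level, a difference that was not tested. More than 1 far-lower unigene was present in 5 components, which held 11 of the 122.

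In the 36 components that held a far-lower unigene and at least 1 other, those outside the set were often lower in yellow too. At a green FPKM of 10 or more, their smaller deficits were set by selection, since the rule took every log2 ratio of -3 or lower. These components held 115 other unigenes, of which 101 had an FPKM of at least 1 in either library. Among the 101, 37 (36.6%) were at least 2-fold lower in yellow on FPKM + 1 and 8 (7.92%) at least 2-fold higher, and 56 were within 2-fold. Over all 48181 unigenes of that level the shares were 15.0% lower and 20.0% higher. The median log2 ratio was -0.47 among the 101 and 0.05 over all. Between -2.5 and -3, just short of the limit, lay 7 of these others, 5 of them with a green FPKM of 10 or more. None of the 8 that were higher in yellow was abundant, their highest yellow FPKM being 22.9.

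Small and large components differed in their medians and overlapped in range. In the 25 components of 2 to 4 unigenes, the summed FPKM met the same rule in 15, of which 2 had to, since both of their unigenes are far lower. The 25 sums kept between 0% and 56.7% of the green level with a median of 8.50%. The 28 far-lower unigenes in them made up a median of 79.9% of the component's green FPKM. In the 11 components of 6 to 12 unigenes, no sum met the rule, and the sums kept between 27.1% and 112% with a median of 49.0%. The 14 far-lower unigenes there made up a median of 28.7% of the component's green FPKM. Of the others in small components, 16 of 28 (57.1%) were at least 2-fold lower, and in large ones 21 of 73 (28.8%). At the median, the far-lower unigenes thus made up less of the sum in the larger components. How far component size bears on this contrast was not tested.

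The extremes show both patterns. A component of 2 unigenes, both far lower, went from a summed FPKM of 1403 in green to 112 in yellow and kept 7.99%. One of them is the third most abundant of the set. A component of 6 unigenes held 3 far-lower ones, which together went from 50.03 to 0.504, while its sum went from 178 to 87.4. A component of 9 unigenes held 1 far-lower unigene, with 12.8 in green and 0.376 in yellow, yet its sum was 231 in green and 260 in yellow. In 6 of the 36 components the sum kept over 50% of its green level. Whether reads were divided among near-identical unigenes in such components was not tested. Counting each component once by its sum, 95 of the 116 met the rule, but 82 of them hold no unigene outside the set and met it by selection. Of the 34 components with a unigene outside the set, 13 met it.

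**Figure D5:**
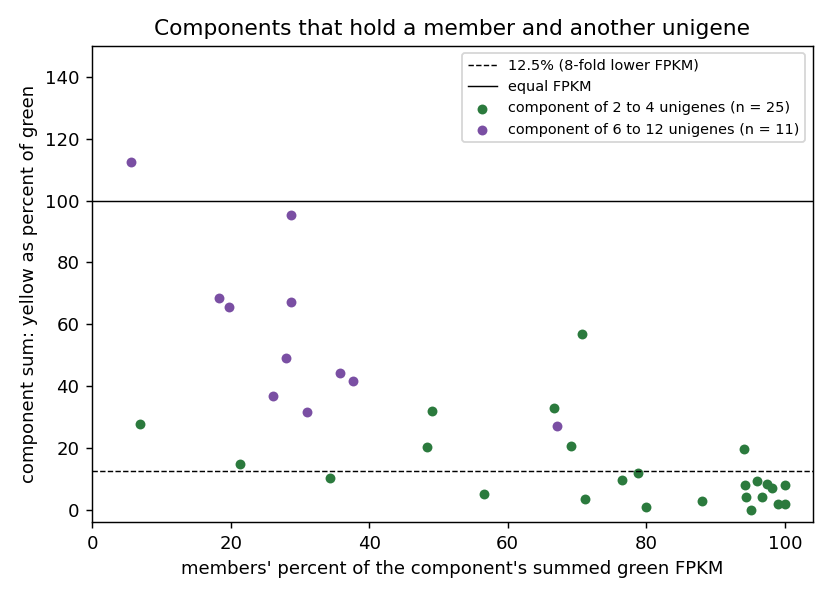
Summed yellow FPKM as a percent of summed green FPKM (y axis) for the 36 components with a far-lower unigene and at least 1 other, against the part of the component's green FPKM that the far-lower unigenes make up (x axis). Points are coloured by the number of unigenes in the component. The 11 components of 6 to 12 unigenes all lie at 27.1% or more, and 15 of the 25 smaller ones have sums that meet the 8-fold rule on FPKM + 1.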

How the data were processed

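Leaf RNA was extracted with Trizol and sequenced on Illumina libraries, per the labels' protocols, with CASAVA 1.7 listed in the submitters' processing notes. How reads were assembled, aligned, counted and filtered is not given in the sources used here, nor are unigene lengths. In the single table that the authors deposited, levels are in FPKM, per the file headers. FPKM holds no read numbers, so depth is unknown and no count model was used. The 2 columns were matched to the libraries by their names.

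The rule used log2 ratios of yellow to green on FPKM + 1, on which changes of unigenes of low level come out too small. The members and all summaries were chosen with earlier results of these data known. Identifiers were printed for the 2 lowest log2 ratios only, and gene lists could not be evaluated without names. Ranks run from the highest FPKM. With 1 library per group, nothing was tested. Alternatives were other pseudocounts, other minimum FPKM values and other scalings. Calculations used Python 3.11.15, numpy 2.4.6 and pandas 2.3.3, with plots by matplotlib 3.10.9. A run on simulated data checked only the arithmetic of the rule, with planted deficits far from its limit and none at low green FPKM.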

Additional observations from a re-analysis of the deposited data

How the results depend on the processing

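Of 50 values under 8 alternatives, changed 1 at a time, 34 stayed within 1.5 times (or within that factor on the log2 scale) and none reversed, as the rule admits only deficits. All 122 unigenes met the rule under each of the 3 other scalings, each of which lowers yellow and so could not remove any at a given green level, with 144 in all at equal sums, 123 with median scaling and 143 at equal upper quartiles. The shifts of yellow were -0.17, -0.05 and -0.29 on the log2 scale. The shift at equal sums rests in large part on the single unigene behind much of the higher yellow sum. Larger moves came with the pseudocount and the minimum FPKM, which by construction add or remove unigenes of low level. With a pseudocount of 5 there were 32 far-lower unigenes, all among the 122. Of these, 11 shared a component, 27 components met the rule by their sums, and the named log2 ratios were -5.55 for c21291_g1 and -5.43 for c31936_g2. With a pseudocount of 0.1 the median level kept was 5.57%. At a minimum green FPKM of 5, or with none, there were 186 unigenes, 148 components met the rule, and the median level kept was 0%. At a minimum of 20 there were 77 unigenes, 27 of them with a shared component, 62 components met the rule, and the median level kept was 5.56%. The median log2 ratio ran from -4.06 to -3.41, which says nothing of stability, since each setting chose the set again with the same limit of -3. No paired analysis was possible because each group has 1 library, and no replicate could be left out. Unknown read numbers limit what the unigenes listed at 0 in yellow can show.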

Other observations

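The far-lower unigenes stood in 2 separate parts of the deposited table, whose row order is not explained in the sources used here. Of the 122, 100 were in rows 82 to 1868, and 22 were scattered over rows 25277 to 60025, with none between the 2 parts. The 22 later ones had a green FPKM of 10.1 to 22.2, with a median of 11.9, and 19 of them were listed at 0 in yellow. The other 3 had a green FPKM of 16.6 to 22.2 and a yellow FPKM of 1.15 to 1.75. The 100 earlier ones had a median green FPKM of 35.9 and included 13 listed at 0 in yellow. The green FPKM of those 13 ran from 10.7 to 43.7, and that of the 19 later ones at 0 from 10.1 to 18.2, so the ranges overlapped. What places unigenes of like FPKM in the one part or the other was not tested.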
